A study of Mus musculus with 26 samples.

Results

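Genes that mark B cells and plasma cells were followed in the RNA of whole mouse livers. The 9 genes were listed by name as markers of these cells, with earlier results of these data known but with no threshold on their values, and all 9 were found by symbol among the 55401 genes of the deposited count table. They are Ms4a1, Cd79a, Cd79b and Cd22, which encode surface proteins of B cells, Pax5, Prdm1 and Irf4, which encode transcription factors, and Mzb1 and Tnfrsf17, which are used in antibody-secreting cells. The livers came from male C57BL/6 mice that had eaten a high-fat diet for 18 weeks, beginning at an age of 4 weeks. The series design also calls this diet high in cholesterol, both groups received it, and the labels class the mice of both groups as MASLD, a fatty liver disease. The UCMSC-Exos group (8 libraries) had exosomes derived from UCMSC injected into the tail vein at intervals of 72 hours over 8 weeks, and the untreated HFD group (9 libraries) has no injection listed. Exosomes are small membrane vesicles that cells release. Their effect, that of the injections themselves and that of any housing common to a group cannot be told apart here. The labels number the mice of each group and give no batch or date, so the p-values measure only the spread between these samples. A further 9 of the 26 samples of the series received another agent, LSCR, and were not analysed here.

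B cells bind antigen with a membrane immunoglobulin that signals through the paired chains encoded by Cd79a and Cd79b. Pax5 holds a cell in the B-cell state. When a B cell becomes a plasma cell, Irf4 and the repressor Blimp-1, the product of Prdm1, shut off much of that programme, and the cell devotes itself to secreting antibody. The liver normally holds B cells among its lymphocytes, while Prdm1 and Irf4 are also used by T cells and by myeloid cells.

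Libraries held 32.9 to 36.1 M counted reads in the UCMSC-Exos group and 32.9 to 35.9 M in the untreated HFD group. Values below are counts per M of the library size after TMM scaling (CPM), so 3 counts correspond to between 0.0705 and 0.103 CPM in UCMSC-Exos libraries and between 0.0749 and 0.0885 CPM in untreated HFD libraries. TMM factors ran from 0.868 to 1.18 in the UCMSC-Exos group and from 0.973 to 1.12 in the untreated HFD group. Hepatocyte markers were abundant in all libraries, with summed levels of 41323 to 77952 CPM in the UCMSC-Exos group and 34430 to 53769 CPM in the untreated HFD group. All 8 of these markers were called higher in the UCMSC-Exos group, beside 9.73% of all tested genes, with a median log2 fold change of 0.76. With surrogate variables in the model, 2 of 8 were called higher, with a median of 0.28, and 966 genes were called in all. Several libraries stood apart. UCMSC-Exos 9 had the TMM factor of 1.18 and the lowest hepatocyte level of its group, and its 8 bile duct markers summed to 596 CPM, against a median of 73.4 CPM over the UCMSC-Exos group and 200.6 CPM over the untreated HFD group, whose highest library reached 530.3 CPM. Untreated HFD 3 held exocrine pancreas transcripts at a summed 13474 CPM, against 8.28 CPM in the lowest library of its group and at most 18.4 CPM in any UCMSC-Exos library. Untreated HFD 9 had the lowest hepatocyte level and the highest erythroid level of its group (199.5 CPM). UCMSC-Exos 9 was the highest library of its group for 5 of the 9 identity genes, and untreated HFD 3 was the lowest of its group for 3.

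In UCMSC-Exos livers Prdm1 was lower, no identity gene was detectably higher, and Mzb1 and Tnfrsf17 were too sparse for the test. Prdm1 averaged 2.88 CPM ± 0.642 (SD, n = 8) in UCMSC-Exos livers and 4.67 CPM ± 1.12 (SD, n = 9) in untreated HFD livers. The immunoglobulin genes that plasma cells transcribe behaved differently, with Igha at 45.5 CPM ± 14.2 (SD, n = 8) in UCMSC-Exos livers and 2.1 CPM ± 0.638 (SD, n = 9) in untreated HFD livers. Of the 9 identity genes, 7 passed the filter on low counts and were tested with edgeR's quasi-likelihood test, with Benjamini-Hochberg adjustment over all 16238 tested genes. Among these 7, 1 passed an adjusted p of 0.05 as lower and 0 passed as higher. Over all tested genes 10.4% were called lower, 9.73% were called higher and 20.2% were called in either direction, so 1 of 7 is near the background. At an unadjusted p under 0.05, 0 of the 7 were higher and 2 were lower. DESeq2 and limma voom also called 0 higher, and each called 2 lower, Prdm1 and Cd22. The median log2 fold change of the 7 was 0.13, beside −0.02 over all tested genes. In bulk RNA fewer cells of a type and less RNA per cell cannot be told apart.

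**Figure D1:**
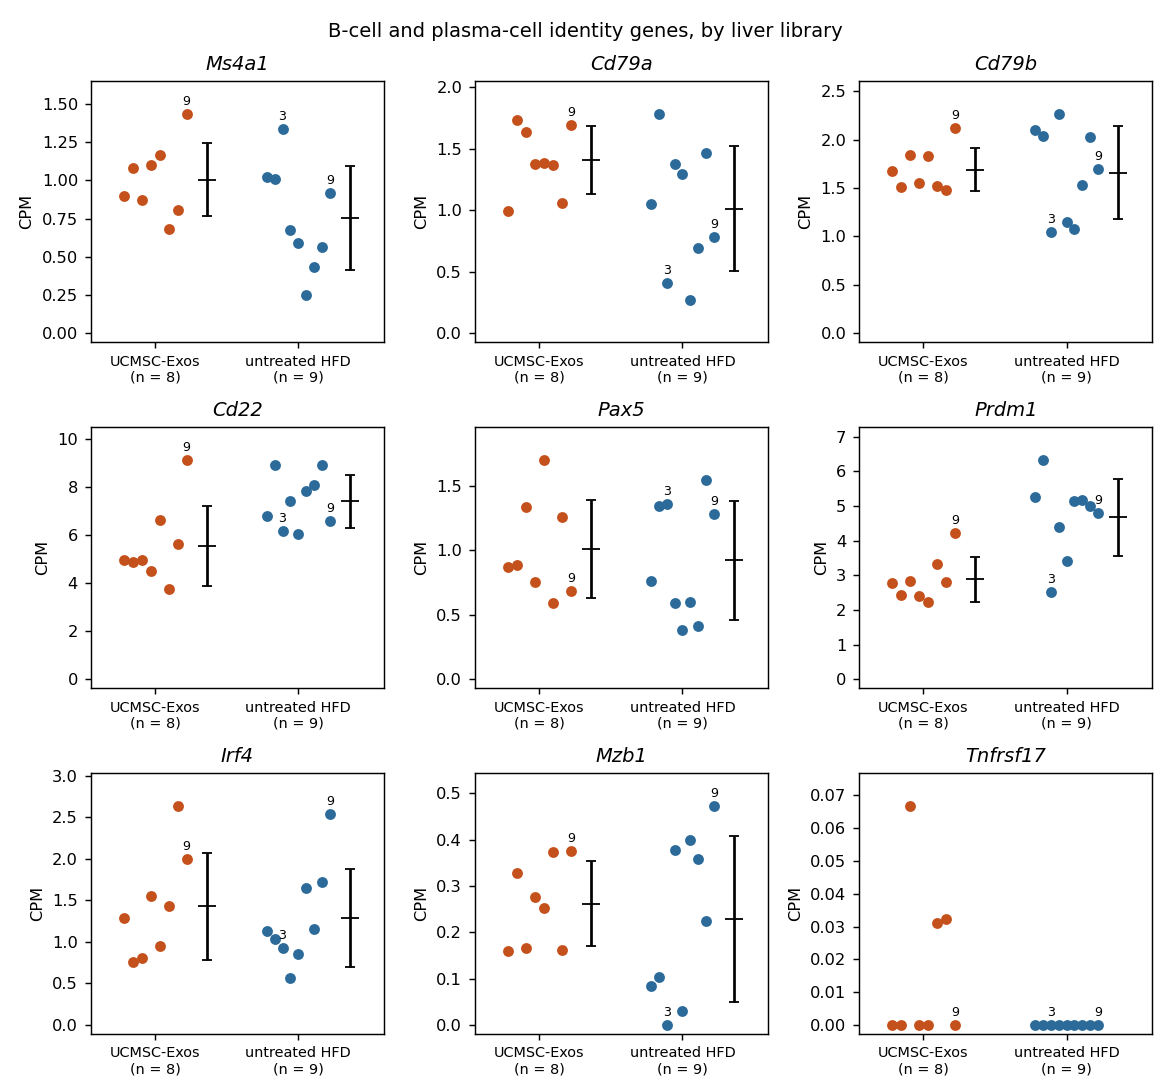
Level of each identity gene in CPM (linear axes) in the 8 UCMSC-Exos and 9 untreated HFD libraries, 1 point per library; black bars are the group mean ± SD (not drawn for Tnfrsf17), and the small numbers mark UCMSC-Exos 9, untreated HFD 3 and untreated HFD 9. Most UCMSC-Exos points lie below most untreated HFD points for Prdm1 and, apart from UCMSC-Exos 9, for Cd22, the other tested genes overlap broadly, and Tnfrsf17 is at 0 in every untreated library.

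Ms4a1 encodes CD20, a surface protein carried by B cells and lost by plasma cells. Its level ran from 0.685 to 1.43 CPM with a median of 0.991 CPM in UCMSC-Exos livers, against 0.25 to 1.33 CPM with a median of 0.674 CPM in untreated HFD livers. All 8 UCMSC-Exos libraries lay above the untreated median, but the ranges overlapped, since untreated HFD 3, 1 and 2 reached 1.33, 1.02 and 1.01 CPM. The log2 fold change was 0.42 ± 0.27 (SE), with a 95% interval from −0.15 to 0.99 (edgeR adjusted p = 0.28). That interval reaches from a small fall to nearly a doubling, so the miss does not show equal levels. Without UCMSC-Exos 9 and untreated HFD 3 and 9, the value was 0.54 (adjusted p = 0.13).

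Cd79a encodes the Ig-alpha chain of the B-cell receptor. It ranged from 0.996 to 1.74 CPM with a median of 1.38 CPM in UCMSC-Exos livers, and from 0.275 to 1.78 CPM with a median of 1.05 CPM in untreated HFD livers. The UCMSC-Exos libraries fell within the untreated range, and 7 of 8 lay above the untreated median. What differed by eye was the lower end, where untreated HFD 6, 3, 7 and 9 had 0.275, 0.406, 0.691 and 0.78 CPM. Its log2 fold change was 0.47 ± 0.30 (SE), 95% interval −0.15 to 1.09 (edgeR adjusted p = 0.258), and it was 0.27 (adjusted p = 0.496) without the 3 libraries that stood apart.

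Cd79b encodes Ig-beta, the partner chain. Levels were 1.48 to 2.12 CPM with a median of 1.61 CPM in UCMSC-Exos livers and 1.04 to 2.27 CPM with a median of 1.7 CPM in untreated HFD livers. The groups overlapped almost entirely, and UCMSC-Exos 9 was the highest treated library. Between groups the log2 fold change was 0.03 ± 0.18 (SE), with a 95% interval from −0.35 to 0.41 (edgeR adjusted p = 0.931). Its sign was not fixed: it was −0.10 without the 3 libraries and −0.13 with library size as the only scaling.

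Cd22 encodes an inhibitory receptor of B cells that binds sialic acids. In the UCMSC-Exos group it ran from 3.76 to 9.12 CPM around a median of 4.95 CPM, and in the untreated HFD group from 6.02 to 8.92 CPM around a median of 7.39 CPM. UCMSC-Exos 9, at 9.12 CPM, was the highest of all 17 libraries, UCMSC-Exos 6 lay at 6.62 CPM, and the other 6 treated libraries were all below the lowest untreated value. Its log2 fold change was −0.41 ± 0.15 (SE), 95% interval −0.73 to −0.09, and did not pass (edgeR adjusted p = 0.0607). This call rested on single libraries. Without UCMSC-Exos 9 the log2 fold change was −0.55 and passed (adjusted p = 0.00214), without untreated HFD 3 it passed narrowly (adjusted p = 0.0462), and without the 3 libraries it was −0.61 (adjusted p = 0.000855). With at most 3 surrogate variables in the model it was −0.22 (adjusted p = 0.479).

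None of the 4 surface genes passed in the main fit, so whether they differ in direction is not settled. The log2 fold changes of Ms4a1 and Cd79a were positive and that of Cd22 was negative. That of Cd79b was 0.03, with a lower median in UCMSC-Exos than in untreated HFD livers. On mm10, Ms4a1 spans 11249675 to 11266241 on chromosome 19, Cd79a 24897381 to 24902197 and Cd22 30865402 to 30880342 on chromosome 7, and Cd79b 106311341 to 106314762 on chromosome 11, so none of them shares a locus with another. Counting used no strand, but the only other gene model that overlaps exons of Cd22, Gm29439 on the opposite strand, had 0 counts.

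Among the transcription factors, Pax5 keeps B-cell identity. Its level was 0.591 to 1.7 CPM with a median of 0.876 CPM in UCMSC-Exos livers, against 0.383 to 1.55 CPM with a median of 0.765 CPM in untreated HFD livers. The groups overlapped throughout, and UCMSC-Exos 9, the highest treated library for Ms4a1, Cd79b and Cd22, was among the lowest here at 0.682 CPM. The log2 fold change was 0.13 ± 0.31 (SE), 95% interval −0.52 to 0.78 (edgeR adjusted p = 0.791), and it was 0.39 (adjusted p = 0.374) without the 3 libraries that stood apart.

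Irf4, which is needed for plasma-cell formation and is also used by activated T cells, ranged from 0.754 to 2.64 CPM with a median of 1.36 CPM in UCMSC-Exos livers. In untreated HFD livers it ranged from 0.566 to 2.54 CPM with a median of 1.13 CPM. UCMSC-Exos 8 and 9 (2.64 and 2.0 CPM) and untreated HFD 9 (2.54 CPM) stood above the rest, and the groups overlapped. Its log2 fold change was 0.15 ± 0.30 (SE), with a 95% interval from −0.47 to 0.77 (edgeR adjusted p = 0.747), and it was 0.30 (adjusted p = 0.477) without untreated HFD 3 and 9.

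Prdm1 was the identity gene that fell. It had 2.76, 2.43, 2.84, 2.41, 2.24, 3.33, 2.8 and 4.23 CPM in UCMSC-Exos 1, 2, 3, 5, 6, 7, 8 and 9. The untreated HFD libraries 1 to 9 had 5.27, 6.33, 2.52, 4.4, 3.42, 5.14, 5.17, 5.01 and 4.79 CPM. All 8 UCMSC-Exos libraries were below the untreated median of 5.01 CPM, and the ranges overlapped through untreated HFD 3 and 5 at the low end and UCMSC-Exos 9 at the high end. The log2 fold change was −0.70 ± 0.17 (SE), 95% interval −1.05 to −0.34 (edgeR adjusted p = 0.00956), a fold of 0.617. Prdm1 passed when each library was left out in turn, with log2 fold changes of −0.80 to −0.63 and an adjusted p of at most 0.0234. It passed as lower in each of the 12 other settings tried as well. Without UCMSC-Exos 9 and untreated HFD 3 and 9 the value was −0.89 (adjusted p = 9.81e-05), and with surrogate variables it was −0.53 (adjusted p = 0.0421).

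Prdm1 spans 44437177 to 44528501 on chromosome 10, Pax5 44524757 to 44710487 on chromosome 4 and Irf4 30749226 to 30766976 on chromosome 13. Gene models overlapping Pax5 on the opposite strand held 0 counts (Gm12462) and 6 counts (5730488B01Rik) in all 17 libraries, so their reads weigh little in it. The 250 bases before the RefSeq starts of Prdm1 and Pax5 are shown (GRCm38.p6, the build of mm10, minus strand), with letters matching a searched motif in capitals.
Prdm1, chr10:44458749-44458998: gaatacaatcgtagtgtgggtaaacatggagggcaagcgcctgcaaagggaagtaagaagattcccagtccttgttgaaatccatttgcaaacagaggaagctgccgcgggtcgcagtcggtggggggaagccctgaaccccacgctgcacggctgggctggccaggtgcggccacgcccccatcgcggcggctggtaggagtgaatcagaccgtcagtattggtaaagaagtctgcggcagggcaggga
Pax5, chr4:44710695-44710944: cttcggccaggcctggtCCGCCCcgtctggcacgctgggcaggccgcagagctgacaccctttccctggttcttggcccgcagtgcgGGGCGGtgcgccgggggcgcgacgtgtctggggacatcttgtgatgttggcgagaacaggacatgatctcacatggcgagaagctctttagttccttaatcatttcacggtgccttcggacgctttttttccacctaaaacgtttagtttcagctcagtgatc
The RefSeq start used for Prdm1 lies inside the span of the gene in the count table, so other starts of the gene are not covered by this window. For Pax5 the window begins at 44710695, beyond the end of its span in the count table at 44710487. Other starts of Pax5 are not covered either. Both windows are rich in G and C, at 59.2% for Prdm1 and 58.8% for Pax5. On both strands, the Blimp-1-type letters GAAAGTG were found in neither window and in 4.01% of 32817 RefSeq windows of 250 bases. The octamer ATGCAAAT, found in 1.6% of windows, and TATAAA, found in 12.4%, were in neither. GGGCGG, the core of a GC box, occurred at 2 places before Pax5 (capitals), at 0 before Prdm1, and in 32.7% of all windows. None of the 4 motifs overlaps another in these windows. These matches are descriptions of letters and not of bound sites.

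Mzb1 encodes a chaperone cofactor of the endoplasmic reticulum that helps antibody assembly in plasma cells and in innate-like B cells. Reads were few: 69 counts over 8 of 8 UCMSC-Exos libraries, at 0.161 to 0.376 CPM with a median of 0.264 CPM, and 77 counts over 8 of 9 untreated HFD libraries, at 0 to 0.474 CPM with a median of 0.225 CPM. No treated library was below 5 counts, while untreated HFD 3 and 5 had 0 and 1, and the groups overlapped. Mzb1 did not pass the filter on low counts. In the edgeR fit without a filter its log2 fold change was 0.20, with a 95% interval from −0.89 to 1.28 (adjusted p = 0.845), an interval that includes a doubling. It spans 35647267 to 35649367 on chromosome 18. SPATA24, a gene model on the same strand, overlaps its exons and had 0 counts. Whether reads shared by both models were lost to Mzb1 was not tested.

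Tnfrsf17 encodes BCMA, the receptor through which long-lived plasma cells take the survival signals APRIL and BAFF, and it is close to specific for antibody-secreting cells. UCMSC-Exos 3, 7 and 8 held 2, 1 and 1 counts, the other 5 UCMSC-Exos libraries held 0, and all 9 untreated HFD libraries held 0. Summed over libraries this is 4 counts or 0.0155 CPM in the UCMSC-Exos group (exact 95% Poisson interval 0.00422 to 0.0397 CPM). The untreated HFD group had 0 counts (exact 95% Poisson interval 0 to 0.0112 CPM). These limits cover counting error only, and the 2 intervals overlap, so no fold is given. Tnfrsf17 spans 11313812 to 11320074 on chromosome 16.

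Per length of exon, Cd79b and Cd22 had the highest mean levels in both groups, and Tnfrsf17 had the lowest. Mean levels in UCMSC-Exos livers were 1.18 ± 0.156 CPM per kb for Cd79b, 1.10 ± 0.33 for Cd22, 0.966 ± 0.19 for Cd79a, 0.516 ± 0.115 for Prdm1 and 0.291 ± 0.131 for Irf4 (SD, n = 8). In untreated HFD livers the order was Cd22 at 1.47 ± 0.218 CPM per kb, Cd79b at 1.16 ± 0.335, Prdm1 at 0.838 ± 0.2, Cd79a at 0.696 ± 0.35 and Irf4 at 0.262 ± 0.121 (SD, n = 9). Prdm1 thus stood below Cd79a in UCMSC-Exos livers with no overlap of the mean ± SD ranges, while in untreated HFD livers its range overlapped those of both neighbours. Lower down came Mzb1, Ms4a1 and Pax5, at 0.215 ± 0.0759, 0.163 ± 0.0385 and 0.114 ± 0.0433 CPM per kb in UCMSC-Exos livers and 0.188 ± 0.147, 0.122 ± 0.055 and 0.104 ± 0.0518 CPM per kb in untreated HFD livers. In both groups the mean ± SD ranges of neighbours among Mzb1, Ms4a1 and Pax5 overlapped. Tnfrsf17 ended both orders, at 0.02 ± 0.0306 CPM per kb in UCMSC-Exos livers and 0 in untreated HFD livers.

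**Figure D2:**
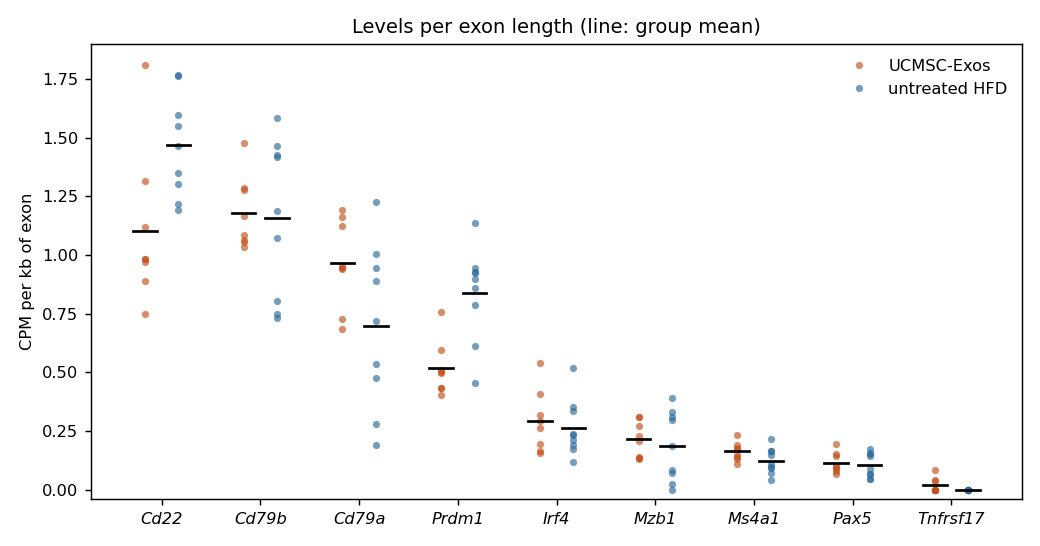
Levels of the identity genes in CPM per kb of exon (linear axis), UCMSC-Exos left and untreated HFD right for each gene, 1 point per library and a line at the group mean. Cd22, Cd79b, Cd79a and Prdm1 are the most abundant per length, and Prdm1 averages 0.516 in UCMSC-Exos and 0.838 in untreated HFD livers.

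Other B-cell genes were called in both directions, at shares near the background. Of 28 surface, signalling and transcription genes 26 were tested, 3 were called higher and 4 lower, beside 9.73% and 10.4% of all tested genes, and the median log2 fold change was −0.07. Without UCMSC-Exos 9, 2 were called higher and 9 lower, in a fit that called 5823 genes in all, against 3274 in the main fit. Pou2af1, the B-cell coactivator OCA-B that also works in plasma cells, had 1.02 to 2.25 CPM in UCMSC-Exos livers and 0.174 to 0.935 CPM in untreated HFD livers, with no overlap, a rise in log2 terms of 1.47 ± 0.28 (edgeR adjusted p = 0.00176). Bach2, a repressor that holds back plasma-cell formation and works in T cells too, rose by 0.49 ± 0.10 (adjusted p = 0.00349), and Fcer2a, the low-affinity IgE receptor CD23, rose by 1.12 ± 0.39 (adjusted p = 0.0494). Cd72, an inhibitory co-receptor, averaged 16.5 CPM ± 8.89 (SD, n = 8) in UCMSC-Exos livers and 42.4 CPM ± 9.98 (SD, n = 9) in untreated HFD livers, a log2 fold change of −1.36 ± 0.24 (adjusted p = 0.00107). Per kb of exon its means were 4.83 CPM in UCMSC-Exos and 12.4 CPM in untreated HFD livers, against 1.18 and 1.16 CPM for Cd79b. Which cells supplied Cd72 was not tested. Plcg2, Ptpn6 and Lyn, signalling proteins that myeloid cells use as well, fell by 0.48, 0.38 and 0.19 on the log2 scale (adjusted p = 0.0012, 0.0157 and 0.0439). Fcer2a, Ptpn6 and Lyn were chosen for mention after their values were seen.

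Of 19 genes of the plasma-cell secretory programme and surface, all tested, 7 were called higher and 1 lower, beside 9.73% and 10.4% of all tested genes, and the median was 0.32. Without UCMSC-Exos 9, 12 were called higher and 2 lower, and with surrogate variables 4 were higher and 1 lower. These fits called 5823 and 966 genes in all. Jchain, which joins IgA and IgM into polymers, had 5.58 to 14.4 CPM in UCMSC-Exos livers and 0.56 to 2.45 CPM in untreated HFD livers and rose by 2.97 ± 0.26 (edgeR adjusted p = 1.24e-06). Tent5c, a poly(A) polymerase that stabilises immunoglobulin messages, rose by 1.00 ± 0.12. Creb3l2, a membrane-bound transcription factor, rose by 0.46 ± 0.06, and Ell2, an elongation factor that favours the secreted form of heavy-chain RNA, by 0.74 ± 0.11 (edgeR adjusted p at most 0.000196 for the 3). Hepatocytes also express secretory genes at high levels. In whole liver Ell2 stood at 117.7 CPM ± 19.3 (SD, n = 8) in the UCMSC-Exos group and 70.4 CPM ± 10.1 (SD, n = 9) in the untreated HFD group. Which cells supplied it was not tested. The 1 gene called lower was Slamf7, a surface receptor of plasma cells, natural killer cells and myeloid cells (−0.95 ± 0.23, adjusted p = 0.00899), named after its value was seen.

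Of 16 survival and homing genes 13 were tested, 1 was called higher and 2 lower, with a median of 0.02. Beside these stand 9.73% and 10.4% of all tested genes. Neither of the ligands that BCMA binds was called higher. Tnfsf13b, which encodes BAFF, was at 0.467 to 3.34 CPM in UCMSC-Exos livers and 1.62 to 5.58 CPM in untreated HFD livers and fell by 1.38 ± 0.34 in log2 units (edgeR adjusted p = 0.0108). UCMSC-Exos 9 was the highest treated library at 3.34 CPM, and 7 of 8 lay below the untreated median. Tnfsf13, which encodes APRIL, averaged 0.523 CPM ± 0.21 (SD, n = 8) in UCMSC-Exos livers and 0.583 CPM ± 0.0925 (SD, n = 9) in untreated HFD livers, a log2 fold change of −0.15 ± 0.24 (adjusted p = 0.687), and was named for its role. Cxcl13, the chemokine that attracts B cells to follicles, had 0.094 to 3.82 CPM in UCMSC-Exos livers and 0.307 to 0.92 CPM in untreated HFD livers and rose by 2.03 ± 0.42 (adjusted p = 0.00297). UCMSC-Exos 9 was its lowest library and the other 7 were above the untreated median. Cxcr4, the receptor that holds plasma cells in their niches, fell by 0.78 ± 0.24 (adjusted p = 0.0295). That call was kept in 12 of the 17 fits that left out 1 library.

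Of 8 germinal-centre genes 6 were tested, 1 was called higher and 2 lower, with a median of −0.81. Beside these stand 9.73% and 10.4% of all tested genes. Without UCMSC-Exos 9, 4 were called lower, and with surrogate variables 0 were called in either direction. These fits called 5823 and 966 genes in all. Bcl6, the master factor of germinal-centre B cells, which hepatocytes also express, rose by 0.99 ± 0.24 (edgeR adjusted p = 0.00885), with 5 of 8 UCMSC-Exos libraries above the untreated median: it ran from 20.9 to 67.3 CPM in UCMSC-Exos livers and from 16.6 to 28 CPM in untreated HFD livers. S1pr2 and Il21r, receptors of germinal-centre B cells and of other cells, fell by 0.71 ± 0.17 and 0.90 ± 0.23 (adjusted p = 0.00785 and 0.0122). S1pr2 averaged 14.1 CPM in UCMSC-Exos and 23.1 CPM in untreated HFD livers, and which cells supplied it was not tested.

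Of 12 immunoglobulin constant regions 9 were tested, 7 were called higher and 0 lower, and the median log2 fold change was 2.11. Beside these stand 9.73% and 10.4% of all tested genes. Igha rose by 4.44, Ighg2c by 3.9, Igkc by 2.67 and Ighg2b by 2.66 in log2 units (edgeR adjusted p at most 0.000258), though reads shared by near-identical gamma or lambda genes are not counted, so the level of each copy is uncertain. Ighm and Ighd, the classes that naive B cells carry, had log2 fold changes of 0.40 ± 0.21 and 0.55 ± 0.24 that did not pass (adjusted p = 0.184 and 0.114).

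**Figure D3:**
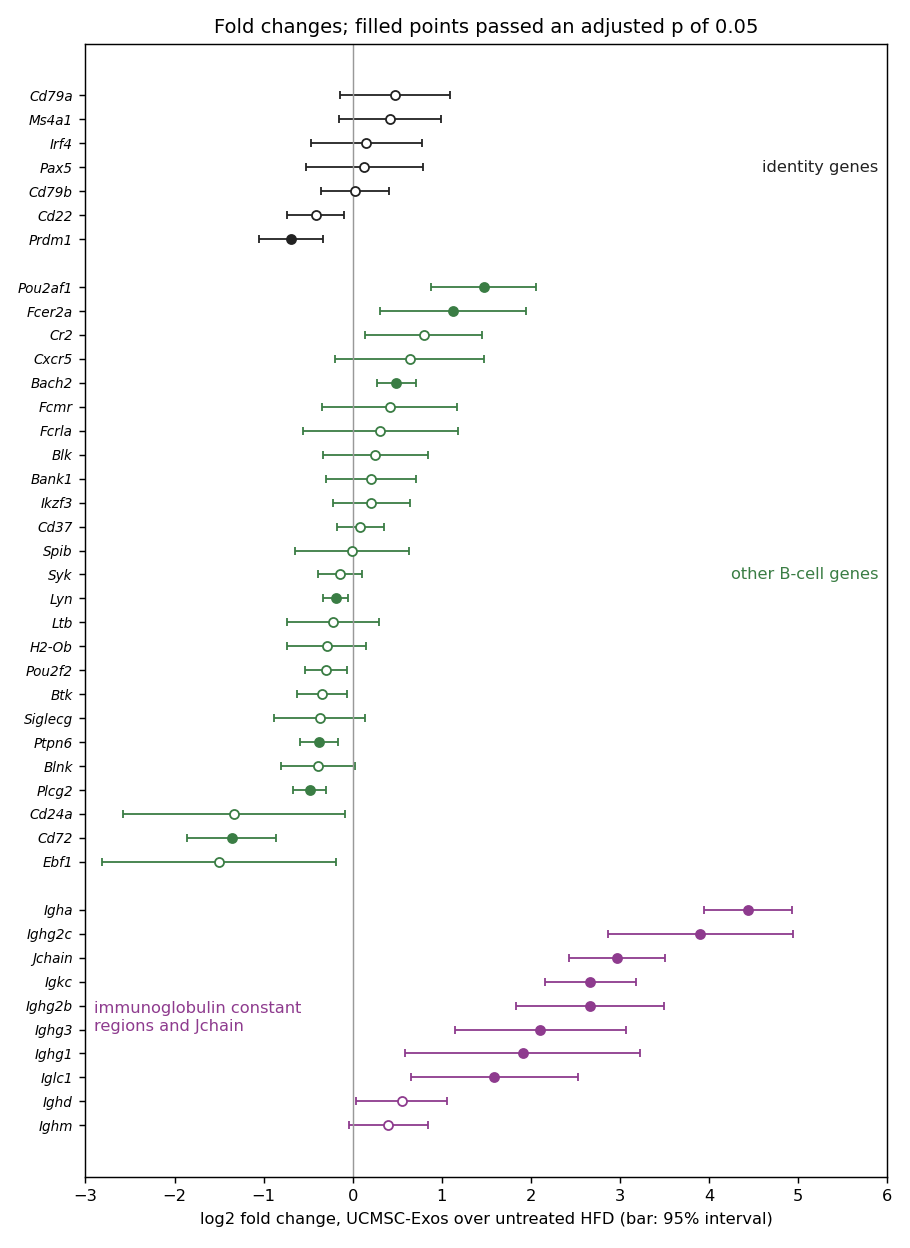
Log2 fold change, UCMSC-Exos over untreated HFD, with its 95% interval for each tested identity gene (black), for other B-cell genes (green) and for each tested immunoglobulin constant region or Jchain (purple); filled points passed an edgeR adjusted p of 0.05. Among identity genes the filled point is Prdm1 at −0.70, while Igha stands at 4.44 and Jchain at 2.97.

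The distance between antibody transcripts and identity genes was measured within each library as the log2 CPM of Igha or Jchain minus that of the identity gene. Igha minus Cd79a averaged 4.91 ± 0.677 in UCMSC-Exos livers and 1.13 ± 0.83 in untreated HFD livers (SD, n = 8 and 9). Igha minus Mzb1 averaged 7.14 ± 0.795 in UCMSC-Exos livers and 3.20 ± 1.5 in untreated HFD livers. Igha minus Prdm1 averaged 3.91 ± 0.508 in UCMSC-Exos livers and −1.16 ± 0.749 in untreated HFD livers. Over 8 identity genes and both antibody transcripts, the 16 differences between groups ran from 2.37 (Jchain minus Cd79a) to 5.07 (Igha minus Prdm1). Each passed a two-sided exact permutation test over all 24310 splits, with adjusted p of at most 0.000206, where 4.11e-05 is the smallest p these splits can give. Igha and Jchain were taken because their rise was known, and no identity gene rose by a like amount. The passes were therefore fixed in advance by that rise and are no further support for it. The 16 differences ran from 2.53 to 5.35 without the 3 libraries that stood apart. All still passed, for the same reason.

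**Figure D4:**
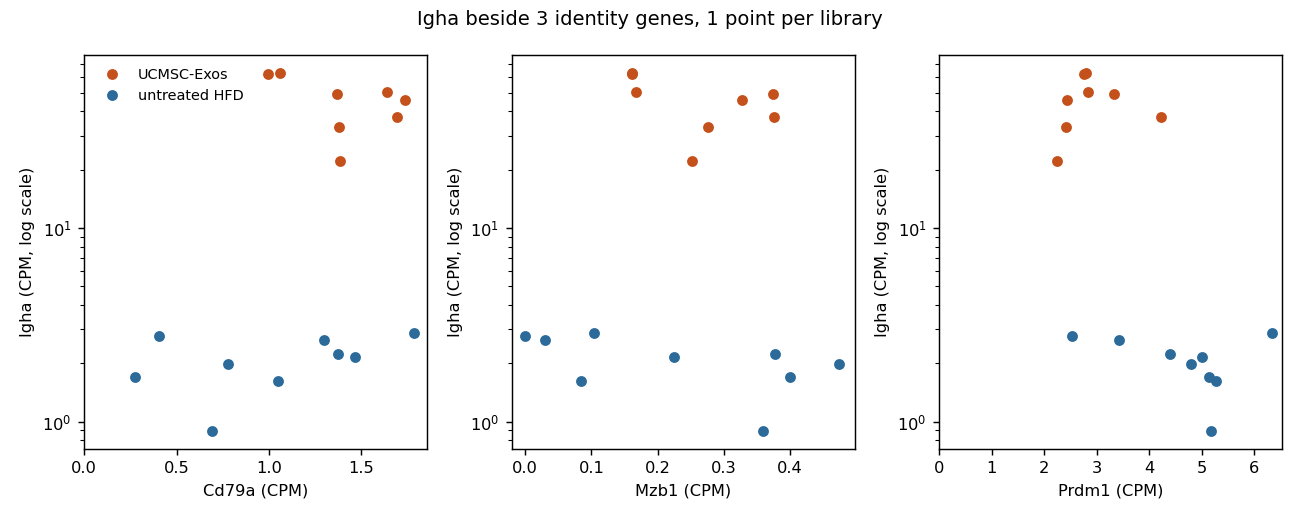
Igha (CPM, log axis) against Cd79a, Mzb1 and Prdm1 (CPM, linear axes), 1 point per library, UCMSC-Exos in orange and untreated HFD in blue. The groups separate along the Igha axis, at 22.1 to 63.6 CPM in UCMSC-Exos and 0.896 to 2.87 CPM in untreated HFD livers, and overlap along each of the other axes.

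Markers of other blood cells moved beside these genes, and their part in the identity-gene results was not tested. The counts of called markers stand beside 9.73% called higher and 10.4% called lower over all tested genes. Of 15 T-cell markers 14 were tested, 8 were called higher and 0 lower, with a median of 0.78. Their summed level was 28.1 to 75.7 CPM in UCMSC-Exos livers and 21.8 to 34.4 CPM in untreated HFD livers, and UCMSC-Exos 9 was the highest. Cd4, Icos, Cd2 and Trbc2 rose by 1.62, 1.2, 1.18 and 0.81 on the log2 scale. T cells can express Prdm1 and Irf4, and how much of either transcript came from T cells was not tested. Plasmacytoid dendritic cells share Irf8 and Ly6d with early B cells: of 10 markers 8 were tested, 0 were called higher and 3 lower (Ly6d, Irf8 and Bst2), with a median of −0.34 and sums of 464 to 676 CPM in UCMSC-Exos livers and 667 to 885 CPM in untreated HFD livers. Bst2 alone made up most of these sums, at 399.5 CPM ± 57.9 in UCMSC-Exos livers and 519.6 CPM ± 78.3 in untreated HFD livers. Ly6d averaged 42.2 CPM ± 29.3 and 131.9 CPM ± 27.1 (SD, n = 8 and 9 for both genes). The sums therefore do not measure the amount of these cells. Siglech, the defining receptor of plasmacytoid dendritic cells, was at 0.926 CPM ± 0.533 (SD, n = 8) in UCMSC-Exos livers and 0.914 CPM ± 0.434 (SD, n = 9) in untreated HFD livers. Of 8 conventional dendritic cell markers 7 were tested, 0 were called higher and 4 lower (Flt3, Xcr1, Fscn1 and Itgax), with a median of −0.70 and sums of 38.6 to 109.6 CPM in UCMSC-Exos livers and 68.1 to 116.6 CPM in untreated HFD livers. Fscn1 and Itgax passed in 11 and 5 of the 17 fits that left out 1 library. With surrogate variables 0 of the 7 dendritic cell markers were called lower, and 1 of the 8 plasmacytoid ones, where 966 genes were called in all. Of 8 Kupffer-cell markers, all tested, 1 was called higher (Timd4), with a median of 0.17 and sums of 821 to 1592 CPM in UCMSC-Exos livers and 441.5 to 1683 CPM in untreated HFD livers.

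Blood content was followed through erythroid genes, and called counts here stand beside 9.73% higher and 10.4% lower over all tested genes. Of 8 genes, 7 were in the table and 5 tested, 3 were called higher and 0 lower, and sums ran from 141 to 345.6 CPM in UCMSC-Exos livers and from 71.5 to 199.5 CPM in untreated HFD livers. Lymph-node and spleen stroma markers stayed scarce, at sums of 1.39 to 5.27 CPM in UCMSC-Exos livers and 0.4 to 2.07 CPM in untreated HFD livers. Of these 10 genes 3 were tested and 1 was called higher, Cxcl13, which is also in the homing list. Glycam1 and Ccl21a, which define high endothelial venules and the T-cell zone of lymph nodes, were at 0 in all 17 libraries. Multi-mapping reads are not counted, so a count of 0 need not mean absence. Intestinal markers summed to 12.7 to 19.3 CPM in UCMSC-Exos livers and 12.1 to 27.4 CPM in untreated HFD livers, with 0 of 3 tested genes called. Of 8 bile duct markers, all tested, 0 were called higher and 1 lower, with a median of −1.03 and sums of 49.5 to 595.9 CPM in UCMSC-Exos livers and 120.8 to 530.3 CPM in untreated HFD livers. Without UCMSC-Exos 9, 7 of the 8 were called lower, and with surrogate variables 0 were. These fits called 5823 and 966 genes in all.

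Whether identity genes moved together from liver to liver was examined over the 17 libraries after each group's mean log2 CPM had been removed. None of the 21 pairs of tested identity genes passed the adjustment over all pairs. Over all 17 libraries the closest pair was Cd79a and Cd79b, the partner chains, with Pearson r = 0.71 (permutation p = 0.0138, adjusted p = 0.145) and Spearman rho = 0.63 (permutation p = 0.0232, adjusted p = 0.397). Leaving out untreated HFD 6 and 3, the 2 libraries farthest from the median of Cd79a, brought r to 0.35, so the relation rested on them. Without untreated HFD 3 and 9 the order of the pairs changed: r was 0.76 for Ms4a1 with Cd79a (permutation p = 0.00674, adjusted p = 0.136) and 0.72 for Ms4a1 with Cd79b (permutation p = 0.0129, adjusted p = 0.136), against 0.34 and 0.32 in all 17 libraries, and 0.64 for Cd79a with Cd79b (permutation p = 0.0465, adjusted p = 0.244). No pair passed the adjustment there either. Untreated HFD 6 and 7 were the 2 libraries farthest from the median of Ms4a1. Without them r was −0.34 for Ms4a1 with Cd79a and −0.02 for Ms4a1 with Cd79b. Prdm1 had r = 0.58 with Cd79b and 0.51 with Cd22 (permutation p = 0.0219 and 0.0277, adjusted p = 0.145 for both), and −0.22 and −0.15 with Ms4a1 and Pax5 (permutation p = 0.469 and 0.603). Ms4a1, Cd79a, Cd79b, Pax5 and Irf4 rested on 10 to 91 counts per library.

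By the same measure, the genes with the nearest patterns were listed among 13790 tested genes with a mean of at least 1 CPM. For Cd79b they included Ighd, the heavy chain of IgD, at r = 0.73 (rho = 0.70). The nearest to Prdm1 were Lbr, Med23 and Zfp157 at r = 0.87, 0.87 and 0.86, and their r without the 3 libraries was 0.72, 0.60 and 0.71. The nearest to Cd22 were Gm26947, Ppp1r18 and Sh2d1b1 (r = 0.87, 0.86 and 0.86), and those to Irf4 were Stat5b, Calcoco1 and Ttl (r = 0.90, 0.86 and 0.85). For Ms4a1 they were Vti1b, Tpm3-rs7 and Gm14539 (r = 0.81, 0.78 and 0.77), for Cd79a Gm18588, Hectd2 and Afp (r = 0.76, 0.75 and 0.75), and for Pax5 Gm11400, Ccl25 and 2500002B13Rik (r = 0.79, 0.74 and 0.72). The other 2 nearest to Cd79b were Pip4k2a and Sugp1 (r = 0.75 and 0.73). These are the highest of 13790 correlations per gene over the same 17 libraries and describe only these livers.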

How the data were processed

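RNA of whole livers was sequenced from 8 UCMSC-Exos and 9 untreated HFD mice. The submitters' processing notes list HISAT2 2.2.1, fastp 1.3.3, Subread 2.0.2 and featureCounts, with mm10 as the build. The deposited counts are raw reads per gene from featureCounts 2.1.1 over GENCODE vM25 exons, per the file headers, with the paired option set, unstranded, and without multi-mapping reads. The versions differ between the sources. The header's options may count both mates of a pair, and reads of antisense genes cannot be told apart. Of 55401 IDs, 55141 matched a symbol and 213 whose symbol was not unique keep their ID. In the table, 1 per-sample column matched no sample and was not used.

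The identity genes and lists were chosen with earlier results of these data known. In R 4.3.3, edgeR 4.0.16 kept genes by filterByExpr (minimum count 10), scaled by TMM and ran a robust two-sided quasi-likelihood test with Benjamini-Hochberg adjustment at 0.05. CPM use the scaled library size, log2 CPM a prior count of 2, and CPM per kb the file's exon length. Poisson intervals are exact at 95%, and PCR copies are not independent molecules. Pair correlations used 100000 permutations of libraries within groups. Promoter windows came from the RefSeq table of GRCm38.p6, where 6 of 9 identity genes matched. Named in the text are all 9 identity genes, in each list up to 4 passing genes of smallest p (or 2 where none passed; not all of these are printed for the tissue lists), and for each tested identity gene the 3 genes with the nearest pattern. Alternatives were RLE, upper quartile and no scaling, no filter, 1 CPM in 8 libraries, DESeq2 1.42.0, voom of limma 3.58.1, a replicate block, at most 3 surrogate variables (sva 3.50.0), halved counts, and libraries left out. Leaving out UCMSC-Exos 9 with untreated HFD 3 and 9, scaling by library size only, and the Igha and Jchain differences were added after the data were seen. On simulated counts for 16171 genes, 41.8%, 82.1% and 97% of 67, 67 and 66 changed genes were recovered at log2 changes of 0.5, 1 and 2, and 2 of 149 calls were false (1.34%). The changed genes were drawn at random from all tested genes, so these rates need not hold for the sparse identity genes. No 2 libraries agreed within sampling noise: the smallest median chi-square ratio of a pair was 3.79. Some genes of the lists are counted in them and are not reported here by name.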

Additional observations from a re-analysis of the deposited data

How the results depend on the processing

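Prdm1 stayed lower and past the threshold in every setting. Over 12 settings beside leaving out 1 library, 72 of 82 fold changes of tested identity genes kept direction and call, 5 passed that had not and 5 changed sign, and 0 identity genes were called higher in any. The number called lower was 2, with Cd22 added, with DESeq2 (Cd22 log2 fold change −0.40), limma voom (−0.65), library size only (−0.55), without untreated HFD 3 and 9 (−0.47) and without these and UCMSC-Exos 9 (−0.61), and 1 to 2 with 1 library left out. The sign changed for Cd79b with library size only (−0.13), voom (−0.063), without untreated HFD 3 and 9 (−0.042) and without all 3 libraries (−0.10), and for Pax5 with library size only (−0.042), a scaling that moves the median of all genes by −0.17. The cause was not tested. With 1 library left out the log2 fold changes ran from 0.30 to 0.56 (Ms4a1), 0.35 to 0.62 (Cd79a), −0.038 to 0.093 (Cd79b), −0.55 to −0.35 (Cd22), −0.017 to 0.26 (Pax5), −0.80 to −0.63 (Prdm1) and −0.034 to 0.34 (Irf4). All genes called were 3274, against 7711 with voom, 966 with surrogate variables, 6716 without the 3 libraries, and 2005 to 5823 with 1 library left out (lowest without UCMSC-Exos 3, highest without UCMSC-Exos 9). In the 5 pathway lists (other B-cell, plasma-cell secretory, survival and homing, germinal-centre and immunoglobulin genes) 19 genes were called higher (16 to 24 with 1 library left out) and 9 lower, against 19 lower with voom, 18 without the 3 libraries and 7 to 18 with 1 library left out. Of 359 values of named list genes, 341 kept their call and 18 lost it. Without untreated HFD 3 and 9 the correlations of Prdm1 with Ms4a1 and Pax5 were 0.14 and 0.073, against −0.22 and −0.15. Same-numbered libraries of the groups did not deviate alike (correlations −0.17 to 0.24, with no library closest to its own number). The labels do not say whether the numbers pair the mice. With the replicate block Prdm1 was −0.69 (adjusted p = 0.0278), Cd22 −0.45, Ms4a1 0.49, Cd79a 0.69, Cd79b 0.13, Pax5 0.14 and Irf4 0.02, 3029 genes were called, and no identity gene's call changed. At 1 CPM in 8 libraries Ms4a1 and Pax5 were not tested. Low counts limit Mzb1 and Tnfrsf17, which had 69 and 4 counts in the UCMSC-Exos group and 77 and 0 in the untreated HFD group.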
